A study of Drosophila melanogaster with 4 samples.

Results

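The regions described here are the stretches of the unplaced sequence U that were called as enriched for histone H1 in larvae of the third instar, the last larval stage, of Drosophila melanogaster. They were chosen by position alone, as every region of the series' combined table whose sequence name is U. There were 444 of them among 18812 combined regions, and the lists of the single samples held 18 of 3779 regions on U in replicate 1 and 106 of 4665 in replicate 2. The assay was ChIP-seq, in which an H1 antibody pulls down crosslinked, sonicated chromatin for sequencing, and the animals were of the wild-type strain Oregon-R. The series had 2 H1 ChIP samples and 2 input samples of the same strain, genotype and stage. The input samples were not analysed here, so every value is a property of a ChIP list or of the combined table. The labels do not say whether the replicates came from separate collections of larvae, and the spread between them may be technical.

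H1 is the linker histone. It sits where DNA enters and leaves the nucleosome and helps to fold nucleosome arrays into compact chromatin. In Drosophila larvae H1 is found over both euchromatin and heterochromatin, and its depletion is known to loosen the chromocentre and to release silenced transposable elements. U is not a chromosome. In Release 5 of the fly genome it joins scaffolds that could not be placed on any chromosome, and much of it is repeat sequence of heterochromatic origin. Neighbours on U therefore need not be neighbours in the nucleus, and short reads from repeats often match many places at once. How the authors placed such reads is not given in the sources used here.

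Per the file headers, U is 10.0 Mb long, one of 14 sequences listed. A second unplaced sequence, Uextra, is listed with 29.0 Mb and held no region in any list. No DNA sequence of Release 5 was used, so regions are given by position, without base composition, repeat family or gene content. Read depth is unknown from region lists.

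H1 regions were scarce on U. Regions covered 0.280% of U in the first replicate and 1.74% in the second, a mean of 1.01 ± 1.04% (SD, n = 2). The autosomal arms 2L, 2R, 3L and 3R were covered to 5.87% in replicate 1 and 7.05% in replicate 2. Coverage of U was thus 0.0476 of that of the arms in replicate 1 and 0.247 in replicate 2, a mean of 0.147 ± 0.141 (SD, n = 2). Counting only regions whose score reached the list median, the ratio was 0.0788 in replicate 1 and 0.441 in replicate 2, a mean of 0.260. In the combined table U was covered to 6.43%, against 33.0% of the arms. A region of the combined table occurred once per 22.6 kb of U and once per 6.50 kb of the arms. U makes up 7.19% of the sequence in which regions were found, and it held 0.476% of the regions of replicate 1, 2.27% of those of replicate 2 and 2.36% of those of the combined table.

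U was also sparser than placed heterochromatin of chromosomes 2 and 3, here the sequence assigned to 2LHet, 2RHet, 3LHet and 3RHet. U held 1.79 and 10.5 regions per Mb in replicates 1 and 2, while placed heterochromatin held 7.45 and 33.6. The ratio of covered shares, U over placed heterochromatin, was 0.344 in the combined table, 0.229 in replicate 1 and 0.296 in replicate 2. The mean of the replicates was 0.262 ± 0.0479 (SD, n = 2), so this ratio varied between replicates far less than the ratio to the arms. U was not the sparsest sequence in every list: XHet and YHet together, only 0.551 Mb with 1, 4 and 15 regions, had 0.265% of their length covered in replicate 1, 1.06% in replicate 2 and 4.10% by combined regions. For chromosome 4 the covered shares were 0.525% in replicate 1, 0.659% in replicate 2 and 6.15% by combined regions. These differences were not tested, since an exact permutation test over 2 samples cannot give a two-sided p below 0.5, and coverage was taken over the full length of each sequence, repeats included.

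Among the sequence classes compared, the ratio of counts between the replicates was highest on U. Replicate 2 held 5.89 times as many regions on U as replicate 1, and 4.51 times as many in placed heterochromatin. On the autosomal arms the same ratio of counts was 1.16 and on the X it was 1.06. In absolute numbers, replicate 2 held 886 more regions than replicate 1, of which 88 lay on U, 228 in placed heterochromatin and 546 on the arms. Read depth, unknown for both libraries, cannot be set beside this difference.

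**Figure D1:**
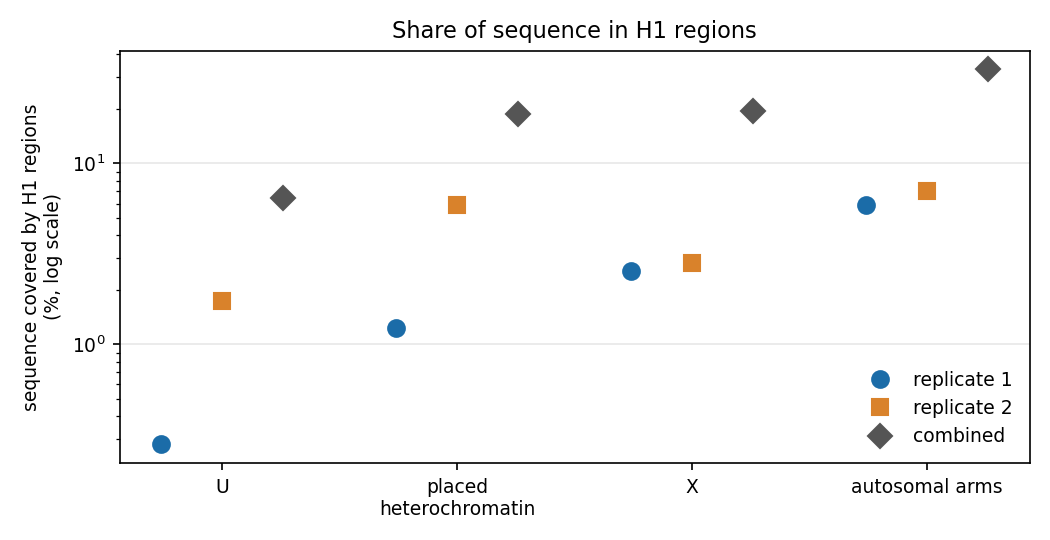
Percent of each sequence class covered by H1 regions, on a log axis, for U, placed heterochromatin, the X and the autosomal arms; circles are replicate 1, squares replicate 2 and diamonds the combined table. Of these 4 classes U is lowest in every list, at 0.280%, 1.74% and 6.43%, and the replicates lie farthest apart on U and placed heterochromatin.

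Regions gathered towards the low-numbered end of U. The sequence was divided into 20 equal windows of about 502 kb, counted from position 1. The first 5 windows held 8 of the 18 regions of replicate 1, 54 of the 106 of replicate 2 and 189 of the 444 combined regions. The last 5 windows held 0, 5 and 54 regions. In terms of covered sequence, the same lists covered 0.480%, 3.54% and 11.3% of the first 5 windows and 0, 0.279% and 2.75% of the last 5. The first 10 windows together held 66.7% of the regions of replicate 1 (95% Wilson interval 43.7 to 83.7%), 72.6% of those of replicate 2 (63.5 to 80.2%) and 64.2% of the combined regions (59.6 to 68.5%). These intervals cover counting of regions only.

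Dense windows recurred between the replicates. The third window, at 1004904 to 1507355, held the most regions in replicate 2, with 17, and in the combined table, with 49, and tied for the most in replicate 1, with 3. The other window with 3 regions of replicate 1 was the twelfth, at 5526971 to 6029422, where there were 9 regions of replicate 2 and 37 combined regions. The twelfth window held more regions than the windows on either side of it in all 3 lists. In replicate 1, with 0 to 3 regions per window, no steady decline came before it. Across the 20 windows Spearman's rho between the covered shares of replicates 1 and 2 was 0.71, and rho with window number was -0.57 and -0.67 in replicates 1 and 2 and -0.81 for the combined regions. Windows share their library and their content of repeats, so rho is a description with no p.

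**Figure D2:**
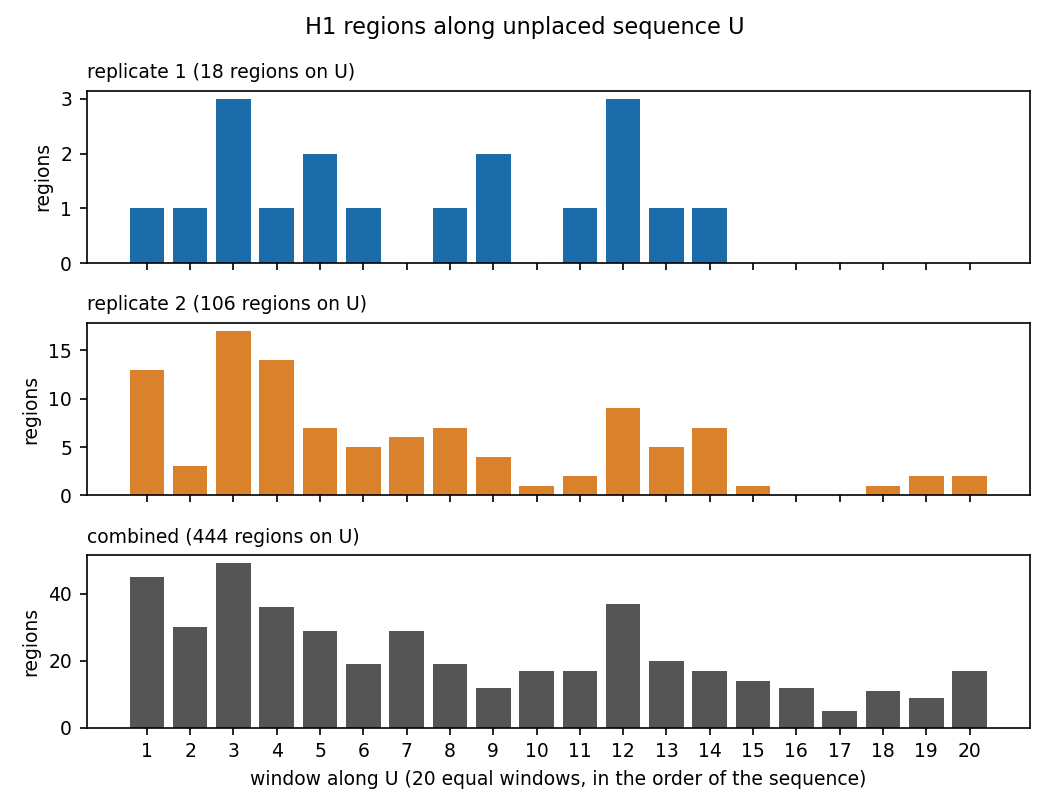
Number of H1 regions in each of 20 equal windows along U, from the low-numbered end at the left, in replicate 1 (top), replicate 2 (middle) and the combined table (bottom), each on its own axis. The third window is the highest or tied for it in each list, a second rise lies at the twelfth window, and replicate 1 has no region in the last 6 windows.

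The high-numbered stretch of U was nearly empty in the replicates. The last region of replicate 1 ended at 6960368, which left 3089 kb to the end of the sequence without a region. Beyond that point lay 7 regions of replicate 2 and 69 combined regions. Replicate 2 itself had none from 7133454 to 8886096, a stretch of 1753 kb. The longest stretch without a combined region was 250 kb, from 9447821 to 9697445. The few regions of replicate 2 there included some of its highest scores on U: the region at 8886097 to 8887559 had 3.31, that at 9760720 to 9762099 had 2.66 and that at 9722368 to 9723830 had 2.44. These 3 regions were singled out after their values were seen.

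At a finer scale, density varied among windows of 100 kb. Of 101 such windows, 84 held no region of replicate 1, 52 none of replicate 2 and 5 none of the combined table. The 10 densest windows by combined coverage were covered to 13.7 to 24.0%, and 9 of them lay before the midpoint of U at 5.02 Mb. They held 106 combined regions, or 23.9%, along with 5 regions of replicate 1 and 40 of replicate 2.

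The densest window ran from 1200001 to 1300000, with 1 region of replicate 1, 7 of replicate 2 and 14 combined regions, covering 1.36%, 12.1% and 24.0% of it. The next, from 300001 to 400000, held no region of replicate 1, but 7 of replicate 2 and 11 combined regions, which covered 22.2% of it. The third, from 1000001 to 1100000, held 1, 6 and 13 regions in the 3 lists and was covered to 21.3% in the combined table. Not every dense window had regions in the replicates: that from 100001 to 200000, with 11 combined regions, and that from 600001 to 700000, with 9, had none in either. These 2 windows were singled out after their values were seen.

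Combined regions on U lay farther apart than in placed heterochromatin or on the arms, and fewer of their gaps were short. The median gap between neighbours was 9.89 kb on U, 3.19 kb in placed heterochromatin and 1.39 kb on the autosomal arms. Gaps under 10 kb made up 50.3% of gaps on U, against 78.6% in placed heterochromatin and 89.4% on the arms. When regions with gaps under 10 kb were grouped, U fell into 221 groups, of which 113 were single regions. Runs of 5 or more regions numbered 14, with 90 regions in all. Groups were counted on U alone, so no share from other sequences stands beside them. The longest run had 12 regions from 1190064 to 1260378, a span of 70.3 kb of which 32.5% was covered; it contained 2 regions of replicate 1 and 6 of replicate 2. The second, with 10 regions from 99024 to 152704, contained none of either replicate. The most tightly filled run of 5 or more, at 1964248 to 1981684, was covered to 75.7% and contained 5 regions of replicate 2 and none of replicate 1. These 3 runs were singled out after their values were seen.

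Regions on U were about as long as elsewhere in the replicates and shorter in the combined table. The median length on U was 1526 bp in each replicate, against 1553 bp on the autosomal arms in replicate 1 and 1587 bp in replicate 2. The ratio of medians, U over the arms, was 0.982 and 0.962, a mean of 0.972 ± 0.0147 (SD, n = 2). Lengths on U ran from 1349 to 2001 bp in replicate 1 and from 1301 to 3018 bp in replicate 2. In the combined table the median on U was 1268 bp, against 1555 bp in placed heterochromatin and 1669 bp on the arms, a ratio to the arms of 0.760.

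The difference in the combined table came with an excess of the shortest regions. No replicate region was shorter than 1301 bp, while the combined table went down to 1001 bp. Below 1301 bp lay 236 of the 444 combined regions on U, or 53.2%, against 35.1% in placed heterochromatin and 29.7% on the arms. Exactly 1001 bp, the shortest length, was reached by 53 regions on U, or 11.9%, with no share taken for other sequences. At the other end, 11.3% of combined regions on U measured 2000 bp or more, against 24.8% in placed heterochromatin and 34.8% on the arms. No domain on U came near the longest combined region of the genome, at 22953 bp: the longest on U measured 4869 bp.

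The 10 longest combined regions on U measured 3063 to 4869 bp. The longest, at 1974284 to 1979152, had a score of 0.49 and was followed by those at 3549756 to 3553738 with 3983 bp, 365784 to 369736 with 3953 bp, 3533062 to 3536828 with 3767 bp and 2550472 to 2554052 with 3581 bp. The other 5 were those at 1322428 to 1325716, 1197736 to 1201014, 564056 to 567262, 5685012 to 5688150 and 6333398 to 6336460. Of the 10, 8 overlapped a region of replicate 2, 2 overlapped replicate 1 and 1 overlapped neither. Over all sequences 22.7% of combined regions overlapped replicate 2, 18.4% replicate 1 and 65.7% neither. Among combined regions on U of 2000 bp or more, 60.0% overlapped replicate 2 and 18.0% replicate 1, so nothing particular to the 10 is read from their counts. The scores of the 10 lay between 0.28 and 0.76, so length and score did not peak together.

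Sites found in both replicates were few on U. Overlap meant at least 1 bp shared. Of the 18 regions of replicate 1 on U, 6 overlapped a region of replicate 2, or 33.3% (95% Wilson interval 16.3 to 56.3%), beside 31.5% over all sequences. Of the 106 regions of replicate 2, the same 6 sites made up 5.66% (2.62 to 11.8%), beside 25.3% over all sequences. In placed heterochromatin these shares were 44.6% for replicate 1 and 10.6% for replicate 2, and on the X 14.9% and 13.9%. The share from replicate 2 was thus also below that over all sequences in placed heterochromatin and on the X. Among combined regions on U, 6 of 444 overlapped both replicates, or 1.35% (0.621 to 2.92%), beside 6.71% over all sequences and 3.38% in placed heterochromatin. Without regions shorter than 1301 bp the share on U was 6 of 208, or 2.88%. The bases called in both replicates made up 3.25% of those called in at least 1 of them on U, or 6.40 of 197 kb, against 5.99% in placed heterochromatin and 10.9% on the arms.

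Replicate 1 thus met replicate 2 on U about as often as it did genome-wide. The share seen from replicate 2 was low on U, where it had 106 regions against 18. On the X, with 362 regions in replicate 1 and 382 in replicate 2, the shares were 14.9% and 13.9%. The cause of the low shares was not tested. The 12 regions of replicate 1 without a partner lay 2.17 to 127 kb from the nearest region of replicate 2, with a median of 21.9 kb, and none was within 1 kb. Of the 100 unpartnered regions of replicate 2, 4 lay within 10 kb of a region of replicate 1, and the median distance was 108 kb.

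The 6 shared sites lay between 1061552 and 5923916 and are taken in order along U. At the first, at 1061552 to 1063370 in the combined table, replicate 1 scored 0.57, replicate 2 scored 0.61 and the combined region 0.47. The replicates' regions there, 1061891 to 1063239 and 1061909 to 1063280, shared 1331 bp, or 98.7% of the region of replicate 1 and 97.0% of that of replicate 2. No other pair on U overlapped as fully on both sides.

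At the second site, 1234898 to 1237274, the regions 1235096 to 1236455 of replicate 1 and 1236145 to 1237449 of replicate 2 shared only 311 bp, with scores of 0.54 in replicate 1, 0.65 in replicate 2 and 0.51 for the combined region. At the third, 3533062 to 3536828, the regions 3533035 to 3534531 and 3533913 to 3536885 shared 619 bp, with scores of 0.63, 0.58 and 0.43 in the same order. In both cases the replicates covered mostly different parts of 1 combined region, with centres 1022 and 1616 bp apart.

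At the fourth site, 4469472 to 4471886, the region of replicate 1, 4469903 to 4471431, lay wholly within that of replicate 2, 4469398 to 4471968. Its score of 0.25 in replicate 1 was the lowest of that whole list, while replicate 2 gave 0.53 and the combined region scored 0.34. The fifth site, 5598982 to 5601624, was likewise nested, with 5599312 to 5600839 inside 5599139 to 5601019 and centres 3.5 bp apart; its scores were 0.68 and 0.77 in replicates 1 and 2 and 0.62 for the combined region. The sixth site, 5921500 to 5923916, had the highest combined score of the 6, at 0.74, with 0.98 in replicate 1 and 0.73 in replicate 2, where the regions 5921890 to 5923835 and 5921654 to 5922968 shared 1079 bp.

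**Figure D3:**
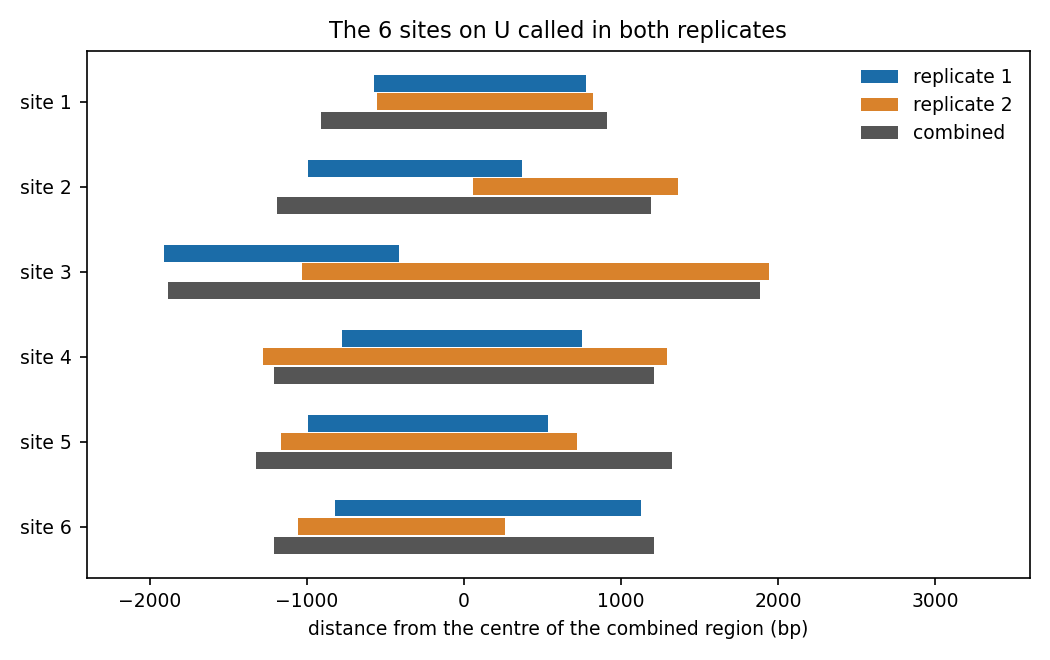
Extent of the regions of replicate 1, replicate 2 and the combined table at the 6 sites on U found in both replicates, as distance in bp from the centre of the combined region, with bars drawn to scale. The replicates' regions coincide at site 1, are nested at sites 4 and 5, and share 311 and 619 bp at sites 2 and 3.

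Combined regions shared by both replicates were long for U and modest in score. The 6 measured 1819 to 3767 bp with a median of 2416 bp, while the 438 others had a median of 1262 bp. Their combined scores ranged from 0.34 to 0.74 with a median of 0.49, against 0.65 for the others. Shared regions were the longer elsewhere too, with medians of 4099 against 1559 bp over all sequences and 3129 against 1531 bp in placed heterochromatin. Median scores of shared and other regions were 0.44 and 0.39 over all sequences and 0.50 and 0.49 in placed heterochromatin. Because a long region has more room to meet another, shares were also taken within a length class. Among combined regions of 2000 bp or more, 9 of 50 on U overlapped replicate 1, or 18.0%, against 19.8% in placed heterochromatin and 42.6% on the arms. The same regions overlapped replicate 2 in 30 of 50 cases, or 60.0%, against 60.8% in placed heterochromatin and 48.7% on the arms. Long regions on U thus had shares close to those of placed heterochromatin in both replicates, lower than the arms in replicate 1 and higher in replicate 2. Overlap with both was found for 5 of 50 on U, or 10.0%, against 13.2% and 21.6%.

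Most combined regions on U had no counterpart in a single replicate. In all, 341 of 444, or 76.8% (95% Wilson interval 72.7 to 80.5%), overlapped neither list, beside 65.7% over all sequences. Of the rest, 86 overlapped replicate 2 alone and 11 replicate 1 alone. Below 1301 bp, where the replicate lists hold no region, 20 of 236 combined regions on U overlapped replicate 2, or 8.47%, against 9.32% in placed heterochromatin and 3.42% on the arms. In the same class 0 on U overlapped replicate 1, against 0.311% in placed heterochromatin and 2.90% on the arms.

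In the other direction, some replicate regions on U were absent from the combined table. It overlapped 17 of 18 regions of replicate 1 on U, beside 98.6% over all sequences, and 93 of 106 of replicate 2, beside 97.9%. In replicate 2, 13 of 106 regions, or 12.3% (95% Wilson interval 7.31 to 19.9%), overlapped no combined region, beside 2.14% over all sequences, so that U supplied 13 of the 100 such regions. Their median score in replicate 2 was 1.41, against 0.77 for the 93 with a counterpart. Over all sequences these medians were 0.63 and 0.58, and on the arms 0.56 and 0.57. Of the 31 regions of replicate 2 on U with scores of at least 1, 9 were without a counterpart, a count not taken over all sequences. In replicate 1 the only such region on U, at 2346827 to 2348257, made up 5.56% of the 18 and had a score of 1.49, the second highest of that list on U, beside 54 regions without a counterpart, or 1.43%, over all sequences; it was named after its value was seen. On U, regions of high score in a single replicate were therefore not always kept in the combined table. Its rule for combining replicates is not given in the sources used here.

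Median scores on U were higher than on the arms, the X and placed heterochromatin within each list, by little in replicate 1 except against the arms. A score is the authors' own value for a region, and its definition is not given in the sources used here. It was treated as a log2 ratio because of the steps between its values, described with the highest scores; on that reading 1 corresponds to a ratio of 2. The median score on U was 0.65 and 0.79 in replicates 1 and 2 and 0.64 over the combined regions. On the autosomal arms it was 0.53 and 0.57 in the replicates and 0.38 over the combined regions. The difference, U minus the arms, was 0.12 and 0.22 in the replicates, a mean of 0.17 ± 0.07 (SD, n = 2), and 0.27 in the combined table. Placed heterochromatin lay between them, with medians of 0.61, 0.71 and 0.49. On the X the medians were 0.62, 0.65 and 0.44. U minus placed heterochromatin was 0.04 in replicate 1 and 0.08 in replicate 2, and U minus the X was 0.03 and 0.14. XHet and YHet together had a higher median than U in replicate 2, 1.05 over 4 regions. Theirs were lower than on U in replicate 1 and the combined table, at 0.53 and 0.52.

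The shift was larger in the upper part of the distribution. Scores of at least 1 were held by 3 of 18 regions on U in replicate 1, by 31 of 106 in replicate 2 and by 124 of the 444 combined regions, or 16.7%, 29.2% and 27.9%. In placed heterochromatin these shares were 9.23%, 8.53% and 6.65%, with 6 regions in replicate 1, and on the arms they were 0.0601%, 0.258% and 0.276%. Of the 50 highest scores of each list, those on U numbered 6 for replicate 1, 23 for replicate 2 and 33 among the combined regions. U also held the lowest score of each replicate, 0.25 in replicate 1 and 0.26 in replicate 2, each a single region. The highest score of replicate 1, 2.99, lay in placed heterochromatin, and the lowest of the combined table, 0.17, on the arms.

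**Figure D4:**
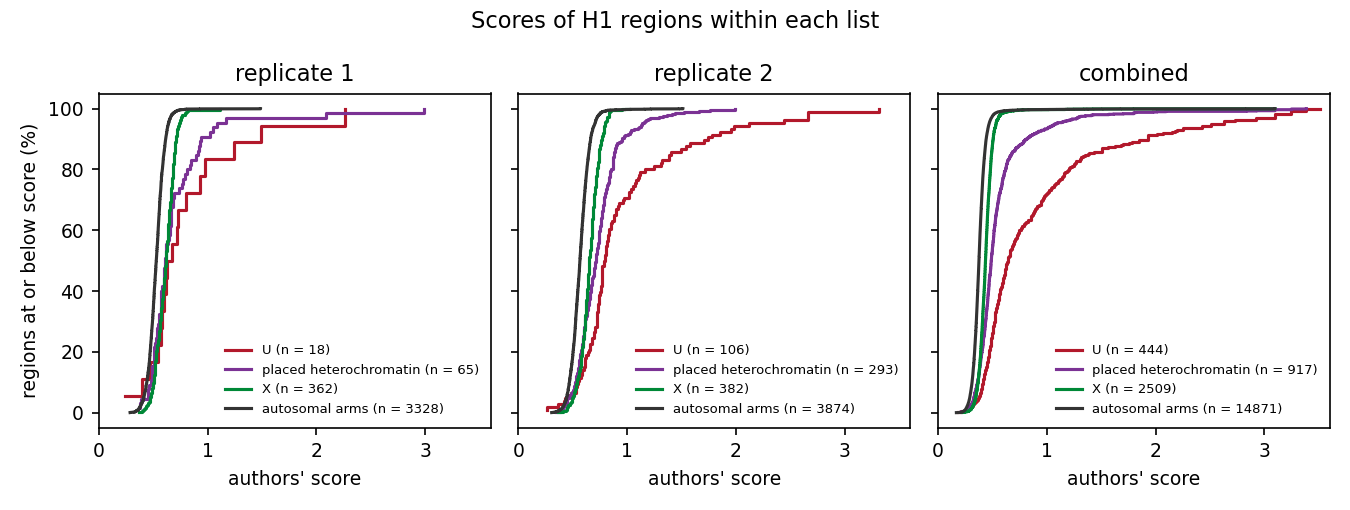
Cumulative percent of regions at or below each score, in replicate 1 (left), replicate 2 (middle) and the combined table (right), for U, placed heterochromatin, the X and the autosomal arms, with the number of regions in each legend. The curve for U lies to the right of the arms over nearly its whole length and has the longest upper tail in replicate 2 and the combined table.

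In the combined table scores of at least 1 mostly belonged to regions shorter than 1301 bp, on U as elsewhere. Across the 444 regions Spearman's rho between length and score was -0.44, compared with -0.25 over 917 regions of placed heterochromatin and 0.19 over 14871 regions of the arms. These are descriptions with no p, since regions of a list share their libraries. Of the 124 regions on U with scores of at least 1, 96 were shorter than 1301 bp, beside 189 of 239 over all sequences. The same counts were 46 of 61 in placed heterochromatin, 36 of 41 on the arms and 8 of 8 on the X. The median score on U was 0.79 below 1301 bp, 0.60 from there to just under 2000 bp and 0.52 at 2000 bp or more. In the longest class the arms had 0.40, so the difference from the arms was smaller there than among the shortest regions, where the arms had 0.38.

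High-scoring combined regions were rarely present in a replicate, on U as elsewhere. Of the 124 combined regions on U with scores of at least 1, 7 overlapped a replicate, or 5.65%, beside 4.60% over all sequences, and none of these was in replicate 1. Of the 320 with lower scores, 96 did, or 30.0%, beside 34.7% over all sequences. Most of the 124 were of the length below which the replicate lists hold no region: of the 96 shorter than 1301 bp 4 overlapped a replicate, or 4.17%, and of the 28 others 3, or 10.7%. Among regions of lower score on U the shares in these length classes were 11.4% and 44.4%.

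**Figure D5:**
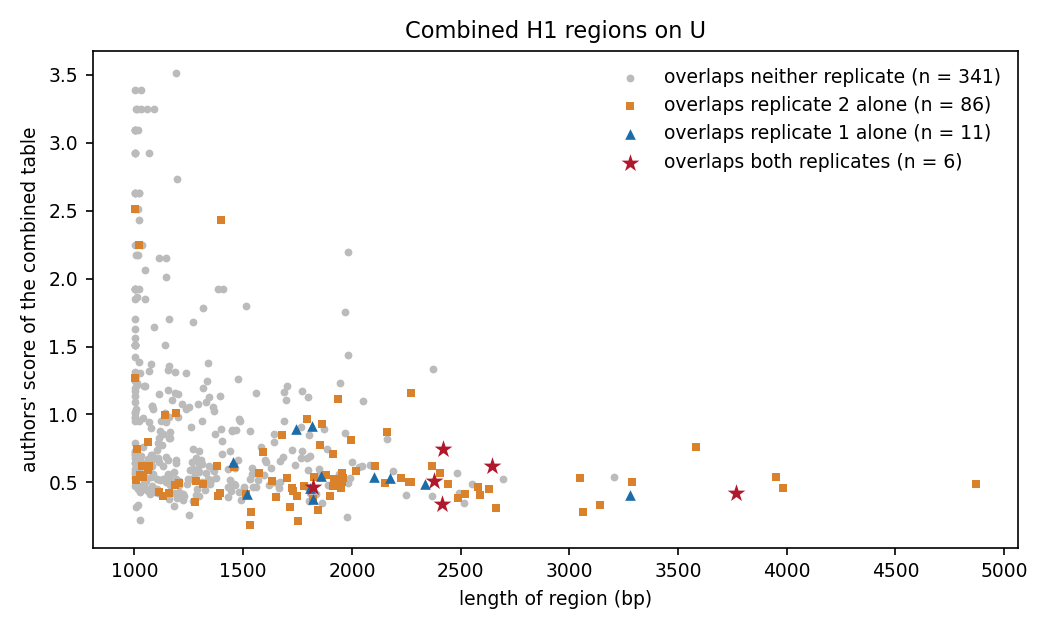
Score against length in bp for the 444 combined regions on U, with symbols for overlap with neither replicate (341), replicate 2 alone (86), replicate 1 alone (11) and both (6). High scores crowd at the shortest lengths, near 1001 bp, and the 6 shared sites lie at 1819 bp or more with scores of 0.34 to 0.74.

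The highest scores took only a few values, in steps of whole numbers. Over all sequences 25 combined regions had scores of at least 3, and 13 of them lay on U. These 25 shared 4 distinct scores, 3.10, 3.25, 3.39 and 3.51, and 2 raised to the score was 9, 10, 11 or 12 times 1 unit of 0.950 (tolerance 1e-06). On U 5 regions stood at 9 units, 5 at 10, 2 at 11 and 1 at 12. What the whole numbers count is not given in the sources used here, and they were not read as numbers of reads. Over all sequences 58 combined regions were a whole multiple of that unit, of which 38 were on U, or 8.56% of its regions, against 1.09% of those in placed heterochromatin and 0.0605% of those on the arms. Those on U had a median length of 1002 bp, against 1309 bp for the other regions on U; 3 of the 38 overlapped a region of replicate 2 and none of them one of replicate 1.

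The single highest combined score of the genome, 3.51, was on U at 4237544 to 4238734, a region of 1191 bp. The next 2 on U, both at 3.39, lay at 3147224 to 3148226 and 4862566 to 4863594. Those at 3.25 lay at 1535498 to 1536528, 2110682 to 2111686, 7163576 to 7164632, 8831418 to 8832428 and 9440418 to 9441506. The 5 at 3.10 began at 3101902, 3138118, 3558494, 4458278 and 5834854. Of these 13 regions, 9 lay before the midpoint of U, or 69.2%, close to the 64.2% of all combined regions there. None of the 13 overlapped a region of either replicate.

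Where a replicate region had a combined counterpart, the combined score was nearly always the lower. This was so for 15 of 17 regions of replicate 1 on U and for 91 of 93 of replicate 2, with median differences, combined minus replicate, of -0.17 and -0.26. The whole lists differed in the same direction, with median scores of 0.39 over all combined regions, 0.54 in replicate 1 and 0.58 in replicate 2. Pairs of regions were compared on U alone, so no share over all sequences stands beside these counts. The order of scores was largely kept, with Spearman's rho of 0.91 over the 17 and 0.86 over the 93; both lists come from the same series, so this is no independent measure. The highest score of replicate 1 on U, 2.26 at 6958368 to 6960368, stood beside 0.90 in the combined table. The highest of replicate 2, 3.31 at 8886097 to 8887559, stood beside 2.43. The larger exception was the region of replicate 2 at 1470506 to 1472068, with 1.54 there and 2.51 in a combined region of 1001 bp. These 3 regions were singled out after their values were seen.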

How the data were processed

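H1 ChIP-seq was measured in 2 ChIP samples with 2 input samples. The authors deposited 3 lists of enriched regions, each with a start, an end and a score per region, on FlyBase Release 5 per the file headers. Per the submitters' processing notes Bowtie 0.12.7 was used, in a role left unstated. How scores are defined, how regions were called, at what threshold, with or without the input, and how replicates were combined is not given in the sources used here. Groups follow the sample titles.

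Regions on U were counted, measured and overlapped (at least 1 bp) within each list, with 95% Wilson intervals for shares. Windows were assigned by region midpoint, and dense windows ranked by covered bases. The overlap and coverage functions were tested on simulated data. No test was run: over 2 samples an exact permutation test cannot give a two-sided p below 0.5, and regions and windows are not replicates. Regions named are all combined regions on U overlapping both replicates, the 10 highest-scoring (13 with ties) and 10 longest, the replicates' shared regions and the 3 densest windows of 100 kb; others, including the third and twelfth of 20 windows and the stretches without regions, were named after their values were seen. Members and lists were chosen with earlier results of these data known. Alternatives were scores at or above the list median, a minimum length, joining of near regions, other windows, other overlaps and leaving out each replicate. No sequence of Release 5 was used. Values were computed with pandas 2.3.3, numpy 2.4.6 and scipy 1.17.1 under Python 3.11.15, and plots drawn with matplotlib 3.10.9.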

Additional observations from a re-analysis of the deposited data

How the results depend on the processing

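Over 15 results, 49 values were recomputed. Of these, 38 were unchanged or stayed within the spread of the replicates or the Wilson interval. Some could not change: no replicate region was shorter than 1301 bp, so the minimum length left every value of the replicates alone as it was. The spread over 2 replicates was also wide for some results, as in the ratio to the arms of 0.147 ± 0.141. The count of 38 is therefore no measure of stability. Shares, ratios and median lengths cannot be negative, so a change of sign was possible only for rho and the score differences. None of these changed sign. With scores at or above the list median, the ratio of the covered share to the arms was 0.260, against 0.147 with all regions, rho between replicates over windows was 0.71, the median length in the replicates 1515 bp, and the length ratio to the arms 0.868 in the replicates and 0.628 in the combined table. With 10 windows rho was 0.64. Without regions shorter than 1301 bp, the densest windows held 32.2% of combined regions, the combined length ratio was 0.887 and the combined score difference was 0.18. In that setting 2.88% of combined regions overlapped both replicates, against 1.35%. This share rose because the same 6 regions remained while 236 of the 444 were removed. With regions less than 1000 bp apart joined, the median length was 1527 bp and the length ratios 0.949 and 0.612. The cause of the other changes was not tested. Requiring 50% of both regions left 4 sites in both replicates, and allowing 1000 bp between regions gave 10 combined regions near both.

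Leaving out each replicate moved the covered share of U between 0.280 and 1.74%, its ratio to the arms between 0.0476 and 0.247 and to placed heterochromatin between 0.229 and 0.296, the share in the first 10 windows between 66.7 and 72.6%, the length ratio between 0.962 and 0.982, and the score difference between 0.12 and 0.22; the median length was 1526 bp either way. The covered share and its ratio to the arms each rest on which replicate is used. No paired analysis was possible because the input samples, which share the replicate numbers, were not analysed here. Since depth is unknown, numbers of regions on U are compared across lists only as values.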
